A study of Mus musculus with 4 samples.

Results

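The T cell receptor recognises peptide on MHC molecules and has no enzyme activity of its own. It signals through the CD3 and zeta chains, which the kinase Lck phosphorylates so that the kinase ZAP-70 can dock. ZAP-70 then phosphorylates the scaffolds LAT and SLP-76, on which phospholipase C-gamma-1 is activated, and the diacylglycerol and calcium it yields switch on Ras, protein kinase C-theta, NF-kB and NFAT factors. Phosphatases, the kinase Csk, Cbl ubiquitin ligases and diacylglycerol kinases hold this cascade back. Regulatory T (Treg) cells, the CD4 T cells that depend on Foxp3 and restrain immune responses, need this signal to maintain their suppressive function.

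The proximal T cell receptor signalling genes described here are a list of 36 genes chosen by name for their part in this cascade. For 35 of them a probe set on the array carried that gene symbol and no other, out of 19938 genes named this way, and the probe set with the highest mean over the 4 arrays was kept. Lck was not analysed here. All 35 genes passed the filter on low values, and 13956 genes in all were tested. By textbook role 23 of the 35 are positive regulators and 12 are negative regulators. Fyn, Themis, Nfatc2, Cd6 and the phosphatase gene Ptprc have roles on both sides and were placed by their better known one.

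Treg cells were compared on 4 Affymetrix arrays, 2 of wild-type cells (Cyld+/+ Foxp3-yfp-cre) and 2 of CYLD-knockout cells (Cyld fl/fl Foxp3-yfp-cre), from C57Bl6 mice aged 6 to 8 weeks. CYLD is a deubiquitinase that limits NF-kB signalling. Both groups carry the Cre recombinase, which is expressed from Foxp3 with a yellow fluorescent protein, so the knockout is restricted to cells that have expressed Foxp3, and the fluorescent cells were sorted. The labels name spleen alone in one place and spleen with lymph nodes in another. They do not say whether replicates came from separate mice. P-values reflect no more than the spread of these samples, taken over all genes and not for each gene. This spread may be technical.

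Cyld itself gave 524 and 502 in wild-type cells and 284 and 218 in knockout cells, and whether its probe set lies in the deleted part is not given. The Treg markers were bright on all arrays, with Foxp3 at 2016 and 1881 in wild-type and at 1697 and 1553 in knockout cells. Of 7 Treg markers tested, 1, Izumo1r, was lower and 0 were higher in the knockout. Izumo1r gave 2476 and 2224 in wild-type cells and 1557 and 1618 in knockout cells. The 7 summed to 13522 and 12702 in wild-type cells and to 12322 and 11158 in knockout cells. Knockout replicate 2 stood apart in Y-linked genes: Kdm5d read 127 there and 268 to 275 on the other arrays. Of 12 macrophage markers tested, 10 were lower and 1, Axl, was higher in the knockout. The 14 markers on the array summed to 3705 and 3485 in wild type and to 3048 and 3461 in the knockout. Without Axl the other 13 summed to 2486 to 2742 in wild type and 1129 to 1400.1 in the knockout. All 9 proliferation markers tested were higher, with sums of 2703 and 2954 in wild type, 4310.1 on knockout replicate 1 and 7254 on knockout replicate 2. Eomes was higher among CD8 T and NK cell markers, whose 8 genes on the array summed to 951 and 969 in wild-type and to 1226 and 1246 in knockout cells. Without Eomes the other 7 summed to 842 and 869.6 in wild-type cells and to 949 and 884 in knockout cells. Of the other lists, 0 of 10 tested markers of B cells, dendritic cells and granulocytes passed. The part of these shifts in the results below was not tested, and fewer cells of a type cannot be told apart from less RNA per cell.

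In CYLD-knockout Treg cells 4 of the 35 genes were lower and 0 were higher, at an adjusted p under 0.05 in limma, a linear model fitted over all genes. They were Txk, Prkcq, Grap2 and Rasgrp1, which encode a Tec-family kinase, protein kinase C-theta, the adaptor Gads and a Ras activator. All 4 are positive regulators, and the knockout level was 54.8% to 70.8% of wild type. Among all 13956 genes 3.50% were lower and 4.79% higher. The 12 negative regulators included 0 that passed in either direction. Of these 12, 11 had a log2 fold change below 0, against 53.3% of all genes tested. At an unadjusted p under 0.05, 10 of the 35 genes were lower, 5 on each side, and 2 were higher, against 10.2% and 9.77% of all genes. With 2 arrays per group, several calls changed when an array was left out, as described below.

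To show what precedes the starts of the 4 genes that fell, their promoters are printed from RefSeq (assembly GRCm38.p6), each 300 bases from 250 before to 50 after the start, 5′ to 3′ on the gene's strand. Capitals mark matches, on either strand, to 6 short motifs: GGGANTT for the start of an NF-kB site, AGGAAG for ETS factors, TGTGGT for RUNX, TGANTCA for AP-1, CTTTGA for TCF factors and GTAAACA for FOXO factors. No matches overlapped. Txk has 2 starts in the table and the more upstream is shown, at chr5:72752728-72753027 on the minus strand. Prkcq is at chr2:11172132-11172431 on the plus strand, Grap2 at chr15:80623233-80623532 on the plus strand and Rasgrp1 at chr2:117342828-117343127 on the minus strand.
Txk: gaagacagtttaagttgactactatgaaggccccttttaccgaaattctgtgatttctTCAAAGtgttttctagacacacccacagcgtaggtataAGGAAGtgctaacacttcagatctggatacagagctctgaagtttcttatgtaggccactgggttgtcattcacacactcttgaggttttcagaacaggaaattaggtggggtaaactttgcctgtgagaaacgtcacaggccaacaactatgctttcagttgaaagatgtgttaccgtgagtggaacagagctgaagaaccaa
Prkcq: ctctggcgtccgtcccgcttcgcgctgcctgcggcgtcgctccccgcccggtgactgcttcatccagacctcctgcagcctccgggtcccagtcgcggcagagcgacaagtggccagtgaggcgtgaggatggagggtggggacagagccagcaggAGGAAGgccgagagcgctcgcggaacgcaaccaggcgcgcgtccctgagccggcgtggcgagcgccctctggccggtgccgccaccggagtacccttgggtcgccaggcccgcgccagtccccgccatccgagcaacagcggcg
Grap2: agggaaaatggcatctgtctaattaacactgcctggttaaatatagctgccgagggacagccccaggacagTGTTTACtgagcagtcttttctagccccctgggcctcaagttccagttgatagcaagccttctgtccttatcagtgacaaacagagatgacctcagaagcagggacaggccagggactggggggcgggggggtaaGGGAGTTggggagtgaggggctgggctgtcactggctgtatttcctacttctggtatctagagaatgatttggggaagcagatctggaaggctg
Rasgrp1: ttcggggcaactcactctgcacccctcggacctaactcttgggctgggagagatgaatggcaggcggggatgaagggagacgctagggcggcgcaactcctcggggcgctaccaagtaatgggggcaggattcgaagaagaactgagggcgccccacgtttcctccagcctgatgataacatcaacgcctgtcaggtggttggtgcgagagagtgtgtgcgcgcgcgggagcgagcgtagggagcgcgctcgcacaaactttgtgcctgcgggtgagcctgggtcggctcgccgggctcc

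No single one of the 6 motifs was found in all 4 promoters. Those of Txk and Prkcq each held AGGAAG, Txk also held CTTTGA, Grap2 held GGGANTT and GTAAACA, and the Rasgrp1 window held none of the 6. Of all 32851 promoters in the table, 35.4% held AGGAAG, 16.5% GGGANTT, 16% CTTTGA and 3.65% GTAAACA, while TGTGGT (16.8%) and TGANTCA (7.81%) had no match in the 4 windows. The promoters also differed in base composition. Those of Prkcq and Rasgrp1 held 37 and 26 CG dinucleotides, those of Txk and Grap2 held 4 and 2, and the median over all promoters was 7. Promoters were listed for 30 of the 35 genes. Of these, taking the first listed start of each, 19 held AGGAAG, 6 GGGANTT, 8 CTTTGA, 3 GTAAACA, 1 TGTGGT and 0 TGANTCA. A match is a description of letters and not a binding site.

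None of the 4 receptor chain genes, nor the coreceptor gene, passed the test. Cd3e, which encodes a signalling chain of the CD3 complex, gave 3240.1 and 3264 in wild-type cells and 3615 and 2978 in knockout cells, so the knockout arrays lay on both sides of the wild-type ones. Its log2 fold change was 0.01, with a 95% interval from -0.32 to 0.35. Cd4, the coreceptor that brings Lck to MHC class II, gave 2033 and 1818 in wild-type cells and 2169 and 1974 in knockout cells, and the groups overlapped. The other chains were Cd3g with a log2 fold change of 0.07, Cd3d with -0.17 and Cd247, the zeta chain with the most phosphorylation motifs, with -0.31. Cd247 gave 1141 and 872 in wild-type cells and 761 and 848 in knockout cells, a gap between the groups that is smaller than the gap between the wild-type arrays. Cd3d was also lower without overlap, at 601 and 575 in wild-type cells and 541 and 503 in knockout cells, and Cd3g was higher without overlap. Over these 5 genes the limma adjusted p ran from 0.289 to 0.977.

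**Figure D1:**
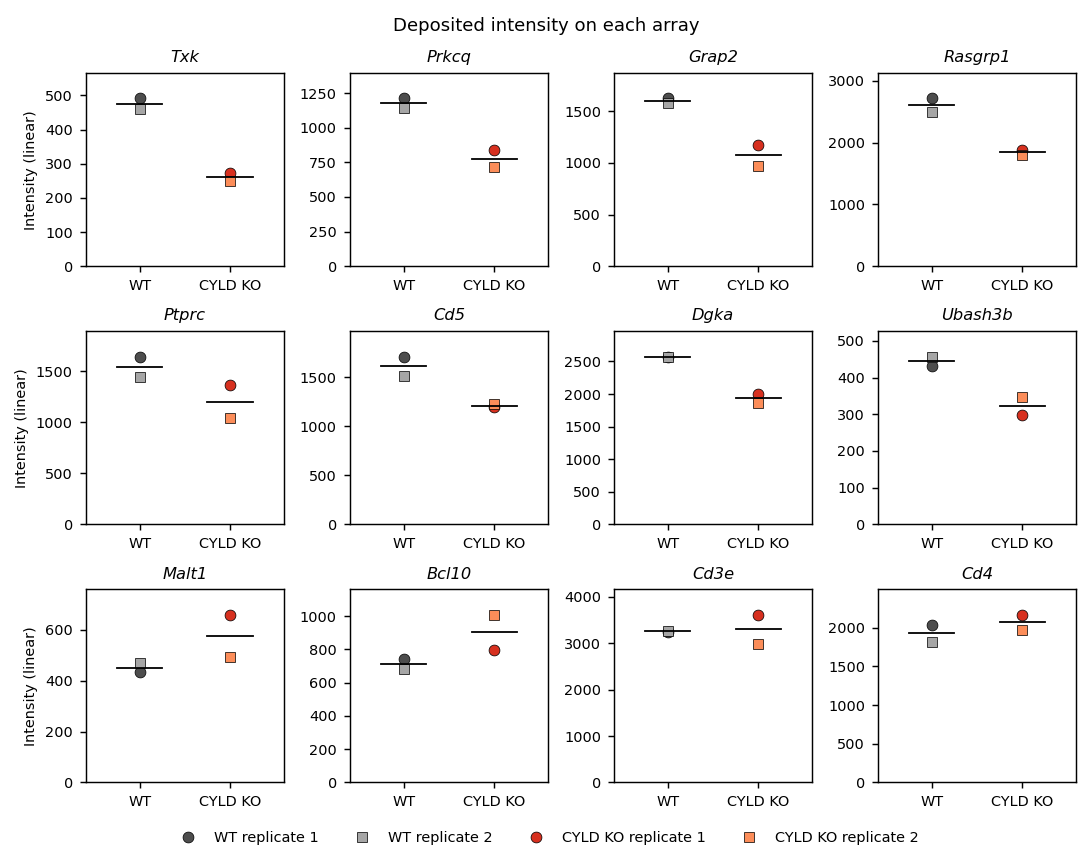
Deposited intensity (linear scale from 0) of 12 genes on each array, in wild-type (grey) and CYLD-knockout (red and orange) Treg cells; circles are replicate 1, squares replicate 2 and bars group means, n = 2. Txk, Prkcq, Grap2 and Rasgrp1 are lower on both knockout arrays, Malt1 and Bcl10 are higher on both without passing the test, and Cd3e and Cd4 overlap.

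Among the receptor-proximal kinases Txk fell. Txk belongs to the Tec family, whose members phosphorylate phospholipase C-gamma-1, and it gave 491 and 460.4 in wild-type cells and 274 and 248 in knockout cells. Both knockout arrays lay far below both wild-type arrays, with means of 476 ± 21.6 and 261 ± 18.3 (SD, n = 2). It differed by -0.87 ± 0.17 on the log2 scale (SE; adjusted p = 1.86e-05 in limma). It was the largest change among the 35 genes, and the call held without each array in turn. With no pooling of variances its adjusted p was 0.273.

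Zap70, the kinase that docks on the phosphorylated chains, gave 1099 and 929.6 in wild-type cells and 908 and 732 in knockout cells. The groups did not overlap, but the higher knockout value was close to the lower wild-type value, and its log2 fold change of -0.31 did not pass (limma adjusted p = 0.294). Fyn, a Src-family kinase related to Lck, had a log2 fold change of -0.09 and overlapping groups. Ptprc encodes CD45, the phosphatase that removes the inhibitory phosphate from Lck and Fyn. It gave 1646 and 1447 in wild-type cells and 1368 and 1039 in knockout cells, with a log2 fold change of -0.37 (limma adjusted p = 0.185). Replicate 2 was the lower array in each genotype for Ptprc and Zap70.

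All 6 adaptors had a log2 fold change below 0, against 53.3% of all genes tested, and 1 adaptor, Grap2, passed. Grap2 encodes Gads, which ties SLP-76 to LAT, and it gave 1622 and 1576 in wild-type cells and 1169 and 972 in knockout cells. The means were 1599 ± 32.8 and 1071 ± 139 (SD, n = 2), and it differed by -0.58 ± 0.17 on the log2 scale (SE; adjusted p = 0.0106 in limma). The proteins that Gads joins showed smaller differences: Lat, the membrane scaffold, had a log2 fold change of -0.24, and Lcp2, which encodes SLP-76, one of -0.03. Lcp2 gave 2719.9 and 2789.55 in wild-type cells and 2828 and 2574 in knockout cells, with overlapping groups. Vav1, an exchange factor that also acts as an adaptor, had -0.30, Nck1, an adaptor to the actin machinery, -0.21 and Themis, which sets signal strength in thymocytes, -0.06. None of these 5 passed.

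Of the 5 genes at and downstream of phospholipase C-gamma-1, 2 fell, Prkcq and Rasgrp1, and 0 rose. Prkcq, the diacylglycerol-responsive kinase protein kinase C-theta, gave 1211 and 1141 in wild-type cells and 837 and 715 in knockout cells. Its means were 1176 ± 49.6 and 776 ± 86.8 (SD, n = 2), with no overlap, and it differed by -0.60 ± 0.17 on the log2 scale (SE; adjusted p = 0.00766 in limma). Rasgrp1, which diacylglycerol recruits to activate Ras, gave 2713 and 2499 in wild-type cells and 1885 and 1803 in knockout cells. Both knockout arrays were well below the wild-type ones, at means of 2606 ± 151 and 1844 ± 57.7 (SD, n = 2), and it differed by -0.50 ± 0.17 on the log2 scale (SE; adjusted p = 0.0424 in limma). Rasgrp1 was closest to the threshold and had an adjusted p of 0.0704 in limma with median centring, 0.123 with quantile normalization and 0.0626 with a replicate block; over all alternatives its adjusted p ran from 6.21e-05 to 0.535. Rasgrp1 passed only without knockout replicate 1 when an array was left out, and Prkcq and Grap2 had adjusted p-values of up to 0.272 and 0.265 without one of the other 3 arrays.

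Plcg1, phospholipase C-gamma-1 itself, gave 947 and 860.3 in wild-type cells and 687 and 749 in knockout cells, lower on both arrays, with a log2 fold change of -0.33 that did not pass (limma adjusted p = 0.253). Malt1 encodes a protease and Bcl10 an adaptor, and both act between the receptor and NF-kB. Malt1 gave 434 and 468 in wild-type cells and 659.9 and 492 in knockout cells, and Bcl10 gave 742 and 680.1 in wild-type cells and 794 and 1009 in knockout cells. Each was higher on both knockout arrays, but Malt1 stood out on replicate 1 and Bcl10 on replicate 2. Their log2 fold changes were 0.34 (95% interval 0.01 to 0.67) and 0.33 (0.00 to 0.67), with limma adjusted p-values of 0.241 and 0.250.

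The NFAT factors, which calcineurin sends to the nucleus, showed no shared direction. Nfatc2 had a log2 fold change of 0.22, Nfatc1 of 0.03 and Nfatc3 of -0.16, and 0 of the 3 passed. Only Nfatc3 of these 3 had groups that did not overlap.

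Negative regulators lay lower as a rule without any one of them passing. Of the 12, 9 were lower on both knockout arrays than on either wild-type array and 0 were higher, against 26.2% and 22.5% of all genes tested. Of the 23 positive regulators, 13 were lower in this way and 3 were higher. The median log2 fold change was -0.31 for the negative and -0.17 for the positive regulators, against -0.02 for all genes tested, and 0.14 separates the 2 medians. On knockout replicate 1 that gap was 0.06 and on replicate 2 it was 0.12, measured from the wild-type mean. Genes are not replicates, so no test was made of the gap, nor of the difference between 4 of 23 and 0 of 12 calls.

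**Figure D2:**
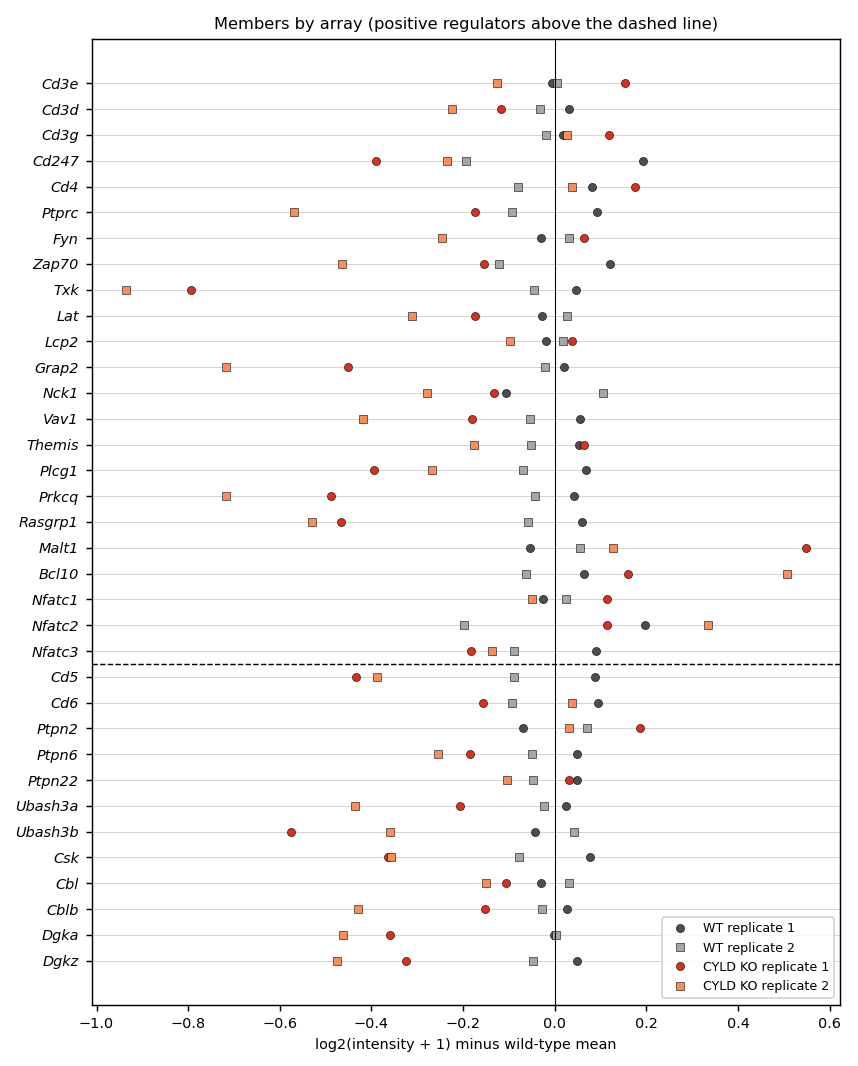
Difference of log2(intensity + 1) from the wild-type mean for each of the 35 genes (horizontal axis, log2 units), with 1 point per array; grey marks wild type, red and orange the knockout, circles replicate 1 and squares replicate 2. The 23 positive regulators are above the dashed line and the 12 negative regulators below it. In 22 genes both knockout points lie left of both wild-type points, against 26.2% of all genes tested. In 3 genes they lie to the right, against 22.5%.

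The diacylglycerol kinases, which remove the messenger that Prkcq and Rasgrp1 respond to, were lower on both knockout arrays. Dgka gave 2566 and 2576 in wild-type cells and 2005 and 1865 in knockout cells, a log2 fold change of -0.41 (limma adjusted p = 0.127). The wild-type arrays were nearly equal and both knockout arrays lay well below them. Dgkz gave 761 and 712 in wild-type cells and 587 and 529 in knockout cells, a log2 fold change of -0.40 (limma adjusted p = 0.143). A second, dimmer probe set of Dgkz gave -0.16.

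Cd5, a surface receptor that dampens T cell receptor signals, gave 1713 and 1516 in wild-type cells and 1193 and 1232 in knockout cells. Its log2 fold change was -0.41, with groups that did not overlap (limma adjusted p = 0.128). The related receptor Cd6 gave 1209 and 1062 in wild-type cells and 1017 and 1162 in knockout cells, with overlap and a log2 fold change of -0.06.

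Ubash3b, which encodes the phosphatase Sts-1 that acts on ZAP-70, had the largest difference among the negative regulators. It gave 431 and 457 in wild-type cells and 297 and 346 in knockout cells, a log2 fold change of -0.47 (limma adjusted p = 0.0640). Its relative Ubash3a, or Sts-2, gave 1385 and 1339 in wild-type cells and 1180.3 and 1006 in knockout cells, a log2 fold change of -0.32. Both genes were lower on both knockout arrays and neither passed. Ptpn6, the phosphatase SHP-1, had a log2 fold change of -0.22. Ptpn22, which acts with Csk on Lck, gave 2519.75 and 2359 in wild-type cells and 2490.5 and 2269 in knockout cells, with overlap and a log2 fold change of -0.04. Ptpn2 was the 1 negative regulator above 0, at 0.11, but its second, dimmer probe set gave -0.21.

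Csk places the inhibitory phosphate on Lck and Fyn. It gave 1101 and 989 in wild-type cells and 810.1 and 815 in knockout cells, lower on both arrays, with a log2 fold change of -0.36 (limma adjusted p = 0.201). The ubiquitin ligase genes Cblb and Cbl, which mark signalling proteins for removal, had log2 fold changes of -0.29 and -0.13, without overlap and without passing.

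**Figure D3:**
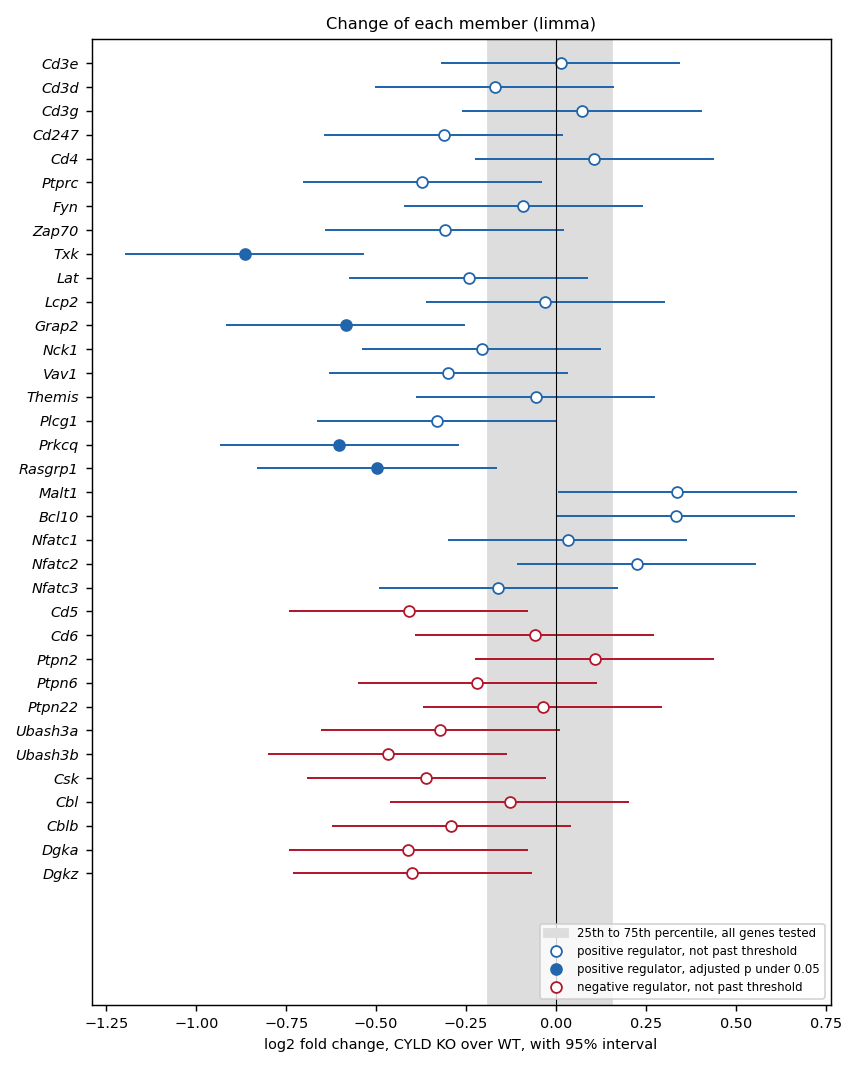
Log2 fold change of each gene, knockout over wild type, with its 95% interval from limma; blue marks positive and red negative regulators, filled points an adjusted p under 0.05, and the grey band the 25th to 75th percentile of all 13956 genes tested, -0.19 to 0.15. The 4 filled points are Txk, Grap2, Prkcq and Rasgrp1. Of the 35 points, 27 lie below 0, against 53.3% of all genes tested.

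Over the whole list, 27 of the 35 genes (77.1%) had a log2 fold change below 0, as did 53.3% of all genes tested, and the median was -0.22. The median stayed below 0 under both alternative scalings, at -0.19 with quantile normalization and -0.19 with median centring, with 25 and 27 genes below 0. The part of the authors' own scaling was not tested. The median was -0.16 without knockout replicate 2 and -0.25 without knockout replicate 1. The knockout arrays also differed from each other. Knockout replicate 2 read lower than replicate 1 in 26 of the 35 genes (74.3%) and in 53.8% of all genes, and the median log2 difference between them was -0.14 for the 35 genes and -0.03 for all. Between the wild-type arrays those medians were -0.09 and -0.01.

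The 35 genes are bright: the median of their mean levels lay at the 96.1 percentile of all genes tested, and the lowest reading was 248. The main fit gives every gene the same standard error of 0.17, taken over all genes tested. It does not measure the spread of a single gene. With no pooling of variances the standard errors of the 35 genes ran from 0.04 to 0.23. When the spread was allowed to depend on intensity, the standard errors of the 35 genes ran from 0.09 to 0.17 and 7 genes were lower, against 4.12% of all genes, and 0 higher, against 4.79%. The added genes were Dgka (limma adjusted p = 0.00160), Cd5 (0.0103) and Ptprc (0.0274), so that 2 negative regulators were then among those that fell. With no pooling of variances 0 of the 35 genes passed, as did 0 of all genes.

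**Figure D4:**
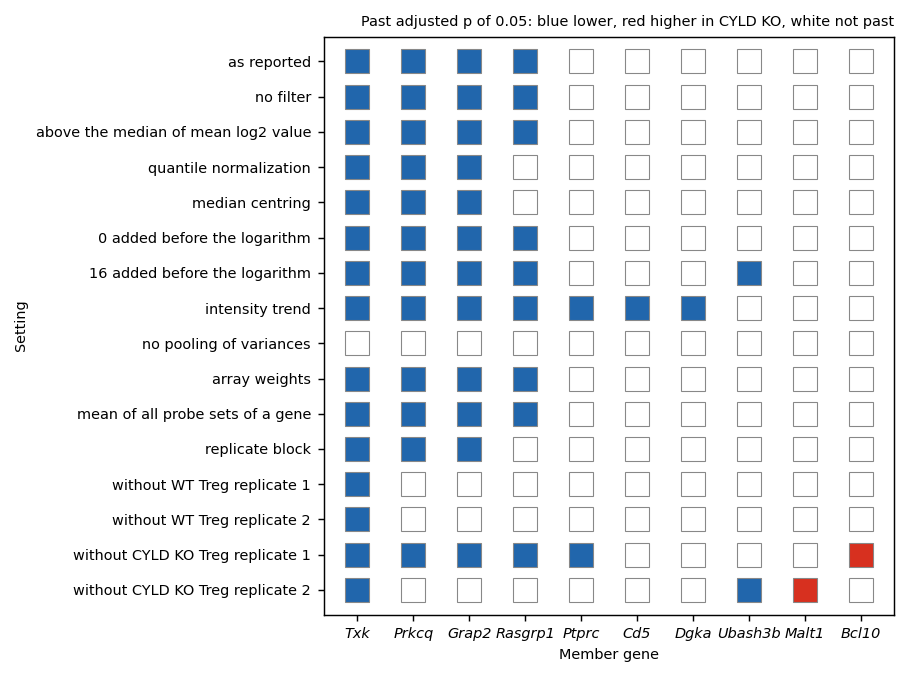
Genes (horizontal axis) with an adjusted p under 0.05 under each setting (vertical axis); blue squares are lower in the knockout, red squares higher, white squares not past the threshold. Txk is blue in 15 of the 16 settings, and Malt1 and Bcl10 are each red in 1, in which a knockout array is left out.

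Several calls changed with an array left out, and such a fit has 1 array in a group. Without either wild-type array the common standard error was 0.23, against 0.17 in the main fit. Log2 fold changes without wild-type replicate 1 and without replicate 2 were -0.56 and -0.65 for Prkcq and -0.563 and -0.605 for Grap2. Those of Rasgrp1 were -0.44 and -0.56. Only Txk passed without wild-type replicate 1 and only Txk without wild-type replicate 2, where 0.846% and 1.30% of all genes were lower and 2.07% and 1.82% higher. Without knockout replicate 2, the array that stood apart, Txk and Ubash3b were lower and Malt1 was higher (limma adjusted p = 0.0423), against 2.76% and 3.52% of all genes. Without knockout replicate 1, the 4 genes and Ptprc were lower and Bcl10 was higher (limma adjusted p = 0.0454), against 5.50% and 6.58%.

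Beyond the 35 genes, 49 of 56 further genes of the pathway were tested, and 3 (6.12%) were lower and 0 higher in the knockout, against 3.50% and 4.79% of all genes. Rhoh, a small GTPase without enzyme activity that helps ZAP-70 reach its substrates, gave 1054 and 1019.7 in wild-type cells and 672 and 529 in knockout cells, a difference of -0.80 ± 0.17 on the log2 scale (SE; adjusted p = 1.13e-04 in limma). Pag1, a membrane adaptor that recruits Csk, gave 276 and 240.4 in wild-type cells and 151 and 168 in knockout cells, a difference of -0.69 ± 0.17 on the log2 scale (SE; adjusted p = 0.00136 in limma). Itpr2, a calcium channel of the endoplasmic reticulum, gave 1045 and 1056 in wild-type cells and 799 and 643 in knockout cells, a difference of -0.55 ± 0.17 on the log2 scale (SE; adjusted p = 0.0185 in limma). Both knockout arrays lay below both wild-type arrays in all 3 genes. At an unadjusted p under 0.05, 12 of the 49 were lower and 2 higher, against 10.2% and 9.77% of all genes. The median log2 fold change was -0.15 over the 25 further positive regulators, of which 21 were below 0. It was 0.00 over the 24 further negative regulators, of which 12 were below 0. Of all genes tested, 53.3% were below 0. The further negative regulators thus did not show the lower median seen in the 12 listed ones, a difference that was not tested. The lists also differ in brightness, and the part of brightness in this difference was not tested. The further ones include dim genes such as Homer2, at 84 and 93 in wild-type cells, and bright ones such as Ptpn7, at 1417 and 1214. The lowest reading of the 12 listed ones was 297, for Ubash3b. Without wild-type replicate 1, Rhoh alone passed, against 0.846% of all genes lower, and 9 of the 49 genes were lower without knockout replicate 1, against 5.50%.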

How the data were processed

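Total RNA of sorted Treg cells was labelled with biotin and hybridised to Affymetrix arrays, per the labels' protocols. Each deposited value is the intensity of 1 probe set on 1 array, and the range of values shows a linear scale. The authors' summarisation, background correction and scaling are not stated in the sources used here. Array medians ran from 99.0 to 105, and the number of arrays limits the precision. Names came from GEO's platform annotation, which gave 1 symbol to 21789 of 35557 probe sets, several to 1621 and none to 12147. Values were converted to log2(value + 1), which understates folds slightly, and more so in dim genes. The log2 fold change of Ubash3b was -0.4695 with 0 added and -0.4682 in the main fit. A gene was tested if its mean log2 value exceeded 6.29, the percentile 30 of all genes, with limma 3.58.1 in R 4.3.3 (lmFit, eBayes, 2 residual degrees of freedom). P-values were adjusted by Benjamini-Hochberg over all genes, with a threshold of 0.05. The fit was run on simulated data in which all genes had 1 common spread, taken from the main fit. That run could not test whether a common spread holds in the real arrays.

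The genes, their roles and the lists were chosen with earlier results of these data known. Values on every array are given for genes past the threshold, genes whose arrays did not overlap with a log2 fold change of at least 0.3 in size, and the 2 of each side nearest to 0. Cd4 was added after its values were seen, and Cd3d is also given outside this rule. Of the further pathway genes those past the threshold are named. Alternatives covered the filter, scaling, pseudocount, variance model, array weights, probe set, replicate block, threshold, roles and each array left out.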

Additional observations from a re-analysis of the deposited data

How the results depend on the processing

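Over all genes tested, 488 were lower in the main fit, 575 with an intensity trend and 0 with no pooling of variances. Under the filters, scalings, pseudocounts, array weights, averaging of probe sets and the block, 408 to 543 were lower. Counts over all genes were not made at the thresholds of 0.01 and 0.1. The count of lower genes among the 35 stayed between 3 and 5 under the filters, scalings, pseudocounts, array weights, averaging of probe sets and the block. It was 7 with an intensity trend, 0 with no pooling of variances and 2 at an adjusted p under 0.01; leaving out each array gave 1 to 5 lower and 0 to 1 higher. For positive regulators it was 0 with no pooling, 2 at 0.01 and 1 to 5 with an array left out, with 0 to 1 higher. For negative regulators the count of lower genes was 1 with 16 added before the logarithm, 2 with the trend, 1 at an adjusted p under 0.1 and 0 to 1 with an array left out. For the further pathway genes it was 5 with 16 added, 6 with the trend, 0 with no pooling, 6 at 0.1 and 1 to 9 with an array left out, with 0 to 1 higher. The cause of these shifts was not tested. The gap between the medians of positive and negative regulators ran from 0.0623 to 0.152 with an array left out and was 0.115 without the genes with roles on both sides, when 4 positive regulators were still lower. Genes near 0 changed sign without passing. With quantile normalization Lcp2 was at 0.0902 and Ptpn22 at 0.0679, and with an array left out Cd3e ran from -0.127 to 0.153, Lcp2 from -0.0977 to 0.038, Ptpn22 from -0.103 to 0.0306 and Cd6 from -0.156 to 0.0367. Arrays with the same replicate number did not deviate together across all genes (r = -0.09), which cannot show whether they were handled together. Among the 35 genes, replicate 2 read below replicate 1 in 24 in wild-type and in 26 in knockout cells. With the replicate number as a block, 3 of the 35 genes were lower and Rasgrp1 was lost. With 2 arrays per group, a 1.40-fold change was the smallest called.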
